A study of Mus musculus with 12 samples.

Results

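Matrix metalloproteases (MMPs), the ADAM and ADAMTS metalloproteases and the tissue inhibitors of metalloproteases (TIMPs) were followed in differentiating mouse ES cells. Members were all genes whose platform symbol was Mmp, Adam, Adamts or Timp with a number, and where a gene had several probe sets the one with the largest mean across the 12 arrays stood for it. The rule found 65 genes among 18193 genes on the array. Of these members, 37 passed the filter on low signals and were tested, and 28 did not. The tested members were 5 of 13 secreted MMPs, 5 of 5 membrane MMPs, 7 of 9 ADAM proteases of somatic tissues, 3 of 3 neural ADAMs without protease activity, 2 of 16 ADAMs of the male reproductive tract, 6 of 7 hyalectan-cleaving ADAMTSs, 6 of 8 other ADAMTSs and 3 of 4 TIMPs.

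MMPs are zinc endopeptidases that cleave collagens, proteoglycans and other matrix proteins, and most are made as inactive proenzymes. ADAMs are membrane proteins, several of which release the extracellular part of ligands and receptors from the cell surface, and ADAMTSs are secreted relatives that process proteoglycans and procollagens. TIMPs bind the active site of these enzymes, and in the embryo the balance between protease and inhibitor is known to shape matrix turnover and cell movement.

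RNA was measured on 12 Affymetrix arrays hybridised with material from ES cells of the D3 line, in 4 groups of 3 named NP day8, BPA day8, control day8 and control day0. NP day8 and BPA day8 were taken at day 8 with the agent of that name, and both control groups, at day 8 and at day 0, had no agent. The cells were grown on MMC treated mouse embryonic fibroblasts as feeders, and differentiation was by way of embryoid bodies. The labels word this alike for every sample, the day 0 ones included, so fibroblast RNA can be part of the samples. Doses, the meaning of the agent names and whether replicates were separate cultures were not given in the sources used here, so the p-values rest on sample-to-sample spread that may be technical. The question of the series is how chemicals affect the differentiation of ES cells.

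All levels are log2 MAS5 signals of 1 probe set and are compared only within that probe set. Levels are given as mean ± SD (n = 3) and changes as differences on the log2 scale ± SE. A change is called where the adjusted p of the limma fit, over 13067 genes, was under 0.05. The background level, the highest value of 3 bacterial control probe sets on the arrays, was a log2 signal of 3.41. Between 32 and 40 of the 65 members lay above it on each array, and 20 members lay above it on all 12. Where values under it entered a called change, the change with those values set to the background level is also given, as a lower bound. Precision is limited throughout by having 3 arrays per group.

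None of 8 defining pluripotency genes of ES cells lay under background on all 3 arrays of any group. Their mean ranged over arrays from 10.23 to 10.68 in NP day8, 10.51 to 10.59 in BPA day8, 7.86 to 8.79 in control day8 and 11.25 to 11.33 in control day0. The mean of 14 tested fibroblast and feeder genes of 16 ranged from 5.28 to 5.33 in NP day8, 5.11 to 5.51 in BPA day8, 7.26 to 7.63 in control day8 and 8.30 to 8.72 in control day0. None of these 14 genes lay under background on all 3 arrays of any group. In bulk RNA, fewer cells of a type and less RNA per cell cannot be told apart.

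Promoters are shown for the 3 cluster MMPs of the day 0 cells (Mmp3, Mmp10 and Mmp13), for their neighbour Mmp8, and for Timp1 and Adamts1, the inhibitor and the protease whose changes are described most fully. Each runs 5′ to 3′ from 250 bases before to 50 bases after the RefSeq gene start (build GRCm38.p6). The positions are chr9:7445572-7445871 (+) for Mmp3, chr9:7502092-7502391 (+) for Mmp10, chr9:7272264-7272563 (+) for Mmp13, chr9:7558179-7558478 (+) for Mmp8, chrX:20869916-20870215 (+) for Timp1 and chr16:85803064-85803363 (-) for Adamts1. Capitals mark matches on either strand to TGANTCA, a loose form of the AP-1 motif with any base (N) in the middle, and to TATAAA, the TATA box motif.
Mmp3: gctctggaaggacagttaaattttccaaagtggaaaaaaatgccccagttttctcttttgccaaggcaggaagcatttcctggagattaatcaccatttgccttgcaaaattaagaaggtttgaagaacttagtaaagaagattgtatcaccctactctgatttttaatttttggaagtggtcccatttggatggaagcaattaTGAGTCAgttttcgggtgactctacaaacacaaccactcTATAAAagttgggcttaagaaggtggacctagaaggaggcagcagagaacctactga
Mmp10: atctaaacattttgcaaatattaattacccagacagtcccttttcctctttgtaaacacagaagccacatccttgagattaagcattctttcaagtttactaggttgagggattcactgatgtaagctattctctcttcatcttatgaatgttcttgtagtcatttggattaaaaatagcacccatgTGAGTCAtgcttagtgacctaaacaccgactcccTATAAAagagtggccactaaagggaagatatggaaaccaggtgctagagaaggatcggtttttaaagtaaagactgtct
Mmp13: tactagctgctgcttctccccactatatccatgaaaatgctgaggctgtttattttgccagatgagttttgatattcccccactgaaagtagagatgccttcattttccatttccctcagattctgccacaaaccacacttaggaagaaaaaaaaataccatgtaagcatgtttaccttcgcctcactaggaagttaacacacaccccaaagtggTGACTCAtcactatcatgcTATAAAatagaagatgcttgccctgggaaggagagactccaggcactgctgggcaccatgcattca
Mmp8: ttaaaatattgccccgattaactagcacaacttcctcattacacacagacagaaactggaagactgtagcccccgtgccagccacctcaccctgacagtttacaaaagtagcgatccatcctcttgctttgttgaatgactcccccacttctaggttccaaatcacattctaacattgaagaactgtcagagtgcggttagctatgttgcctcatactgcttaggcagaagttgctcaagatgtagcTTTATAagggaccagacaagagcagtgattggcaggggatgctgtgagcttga
Timp1: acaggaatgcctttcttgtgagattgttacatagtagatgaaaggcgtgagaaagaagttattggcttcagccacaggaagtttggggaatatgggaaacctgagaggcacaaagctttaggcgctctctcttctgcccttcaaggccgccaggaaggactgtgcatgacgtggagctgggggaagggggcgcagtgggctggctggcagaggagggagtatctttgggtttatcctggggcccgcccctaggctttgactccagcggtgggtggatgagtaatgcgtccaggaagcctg
Adamts1: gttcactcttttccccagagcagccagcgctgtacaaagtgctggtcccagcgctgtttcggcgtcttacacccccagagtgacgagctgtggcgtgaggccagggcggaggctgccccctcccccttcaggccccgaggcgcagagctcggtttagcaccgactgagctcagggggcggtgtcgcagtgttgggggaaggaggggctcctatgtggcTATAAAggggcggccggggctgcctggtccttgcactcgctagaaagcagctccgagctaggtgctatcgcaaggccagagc

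RefSeq promoters were matched for 37 of the 65 members. TGANTCA stood in 11 of these 37 and TATAAA in 12, against 8.97% and 15.7% of 27025 promoters of the same length. The matches gathered in the MMP cluster of chromosome 9, where 8 of 9 members held TGANTCA, Mmp8 being the exception, and 9 of 9 held TATAAA. Among the 28 other members 3 held TGANTCA (Adam19, Adam1b and Adam25) and 3 held TATAAA (Adam6a, Adam6b and Adamts1). In Mmp3 the AP-1 match began 46 bases before the start and in Mmp10 63 bases before it, both as TGAGTCA, while Mmp13 had TGACTCA 35 bases before it. In the 6 promoters shown no AP-1 match overlapped a TATAAA match. Timp1 had no exact match to either pattern in this window. Sequences close to a pattern but not equal to it, such as tgagtaa in the Timp1 promoter shown, were not counted. The matches counted are letters in a window and were not tested as sites.

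The cluster of 10 MMP genes on chromosome 9 runs Mmp13, Mmp12, Mmp1b, Mmp3, Mmp1a, Mmp10, Mmp8, Mmp27, Mmp20 and Mmp7 in the RefSeq order, and 9 of them were members (Mmp27 was not analysed here). In control day0, Mmp3, Mmp10 and Mmp13 lay above background on all 3 arrays, and none of the other 6 members of the cluster lay above it on more than 1. Outside control day0, no member of the cluster lay above background on all 3 arrays of a group.

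**Figure D1:**
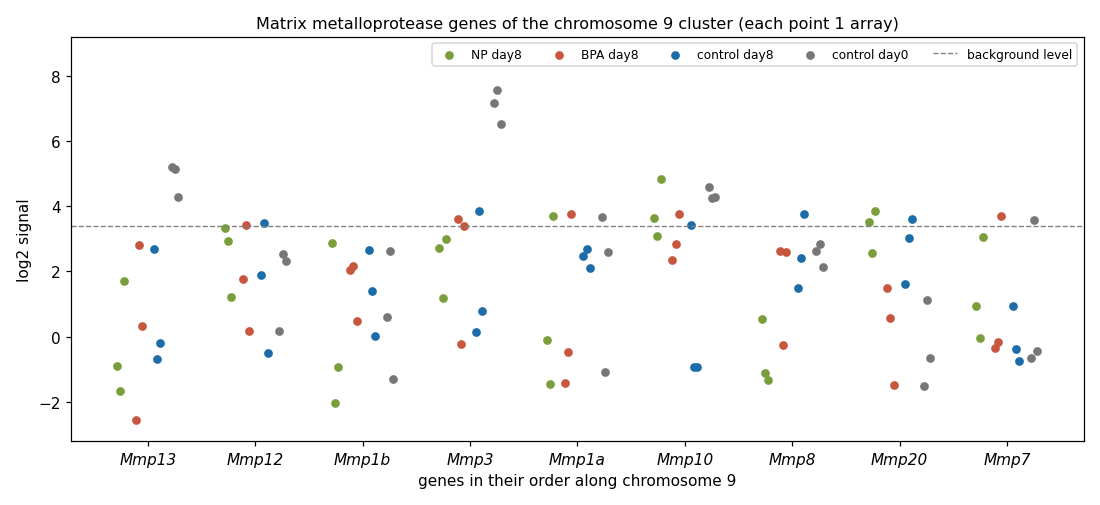
The log2 signal on each array is plotted for the 9 measured members of the chromosome 9 cluster in gene order, with points coloured by group and the background level of 3.41 drawn as a line. Mmp13, Mmp3 and Mmp10 stand above the line on all 3 control day0 arrays, and most other points lie under it.

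Mmp3, or stromelysin 1, cleaves proteoglycans and activates other MMPs. Its level was 2.72, 1.17 and 3.0 on the NP day8 arrays, 3.60, -0.23 and 3.38 on the BPA day8 arrays, 0.13, 3.86 and 0.79 on the control day8 arrays, and 7.17, 7.57 and 6.53 on the control day0 arrays. All 9 day 8 arrays lay under the day 0 arrays. Mmp3 fell in control day8 against control day0 by 5.50 ± 1.17 (adjusted p = 0.00362), and with values under background set to that level by at least 3.53, which is at least 11.6-fold. Mmp10, or stromelysin 2, stood at 3.42, -0.95 and -0.94 in control day8, against 4.59, 4.24 and 4.28 in control day0. It fell by 3.86 ± 1.04 (adjusted p = 0.012), or by at least 0.96 against the background level. Its call was lost in a fit on the compared groups alone (adjusted p = 0.0538, with alternatives from 0.000153 to 0.0538). Mmp13, or collagenase 3, did not pass the filter and was not tested. It stood at 2.68, -0.69 and -0.20 in control day8, against 5.21, 5.14 and 4.27 in control day0, at least 2.76-fold lower at day 8. Mmp3 and Mmp10 passed the filter only through their control day0 values, so they had to differ between the groups.

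Between day 0 and day 8 of control culture the 3 tested TIMPs fell, while 4 of 6 tested hyalectan-cleaving ADAMTSs, the gelatinase Mmp2 and the sheddase Adam10 rose. Of 37 tested members 10 were higher (27.0%) and 9 lower (24.3%) in control day8 than in control day0, against 28.3% and 20.5% of all genes tested. In all, 48.7% of genes were called in this comparison, so the members' shares were near the background. The counts include Adam5 among the higher and Mmp3 and Mmp10 among the lower members, which passed the filter only through the group where they were high. The groups did not overlap for 23 members, against 56.8% of all genes. The median change of the tested members was 0.31, against 0.12 over all genes.

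**Figure D2:**
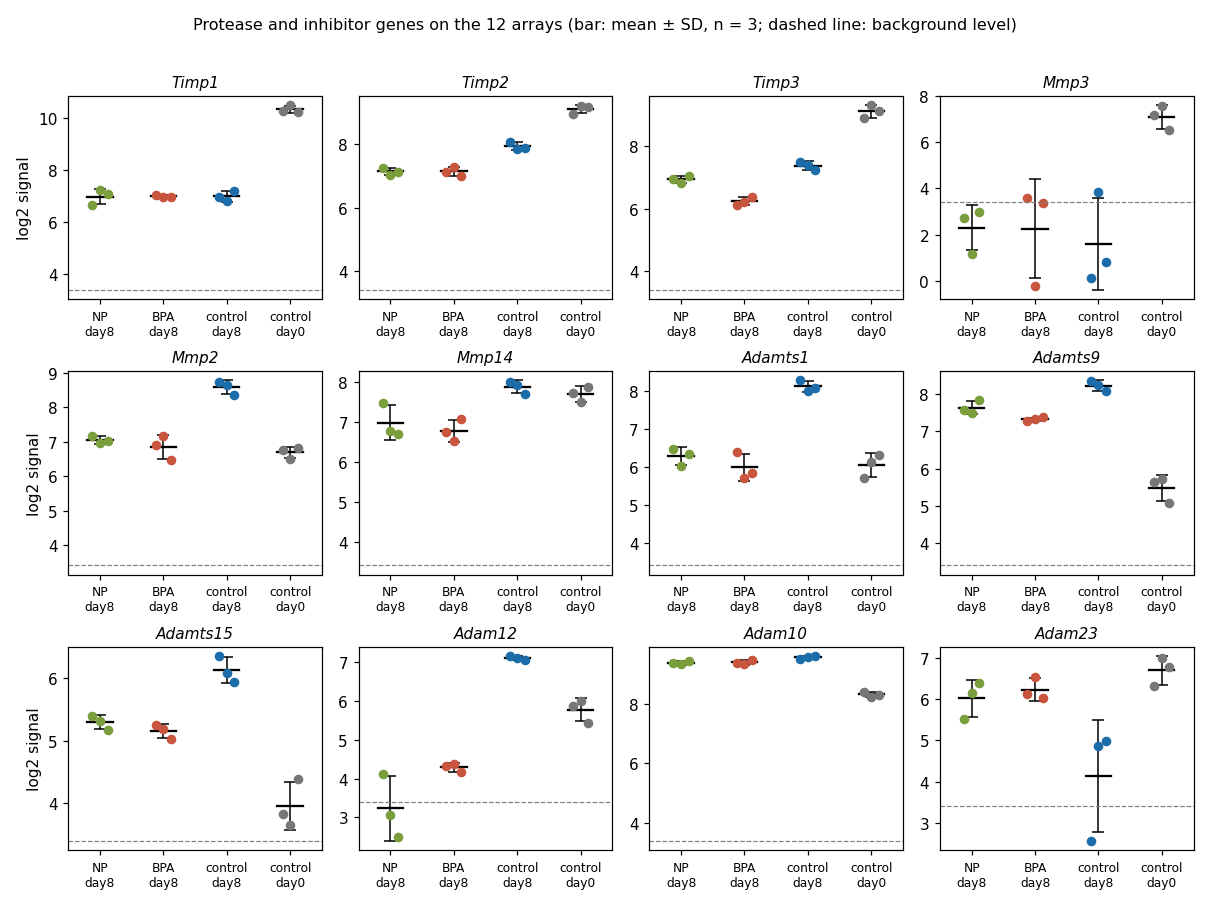
The log2 signal on each array is plotted for members that the text describes, with the groups NP day8, BPA day8, control day8 and control day0 side by side and bars for the mean ± SD and a dashed line at the background level. Timp1 lies between 6.64 and 7.21 on all day 8 arrays and above 10 on the day 0 arrays, whereas Mmp2 and Adamts1 are high in control day8 alone.

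Timp1, a secreted inhibitor of most MMPs, had a level of 6.64, 7.21 and 7.06 in NP day8, 7.05, 6.97 and 6.97 in BPA day8, 6.94, 6.81 and 7.20 in control day8, and 10.24, 10.48 and 10.23 in control day0. The 3 day 8 groups overlapped each other and lay far under control day0. Timp1 averaged 6.98 ± 0.20 in control day8 and 10.32 ± 0.14 in control day0, and it fell by 3.33 ± 0.16 (adjusted p = 2.51e-06), which is 10.1-fold. Timp2, which inhibits MMPs and also takes part in the activation of proMMP2 by MMP14, stood at 7.25, 7.03 and 7.13 in NP day8, 7.13, 7.29 and 7.01 in BPA day8, 8.08, 7.85 and 7.87 in control day8, and 8.97, 9.21 and 9.16 in control day0. Both treated groups stood lowest, control day8 above them and control day0 highest, with no overlap between those 3 levels. Timp2 fell by 1.18 ± 0.12 in control day8 against control day0 (adjusted p = 4.57e-05). The size varied with the probe set. Other kept Timp2 probe sets changed by -2.35, -2.19, -2.12 and -0.36, all but the last called over all probe sets. Timp3, which binds to the matrix and also inhibits ADAMs and ADAMTSs, stood at 6.94, 6.83 and 7.03 in NP day8, 6.11, 6.23 and 6.38 in BPA day8, 7.49, 7.41 and 7.23 in control day8, and 8.90, 9.31 and 9.13 in control day0. None of these groups overlapped. Timp3 fell by 1.73 ± 0.13 in control day8 against control day0 (adjusted p = 1.25e-05). Timp4 did not pass the filter, and its values ranged from -1.59 to 4.99 over the 12 arrays with no group above background throughout. The fibroblast and feeder genes moved in both directions between these groups. Of the 14 tested, 5 rose and 7 fell. Pdgfra changed by 3.38 and S100a4 by -7.12, or by -6.67 with values under background set to that level. The part of these genes in the fall of the TIMPs was not tested.

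Among the MMPs outside the cluster, Mmp2 moved opposite to the TIMPs. Mmp2, or gelatinase A, degrades denatured collagen and basement membrane collagen. Its level was 7.18, 6.96 and 7.02 in NP day8, 6.91, 7.16 and 6.48 in BPA day8, 8.75, 8.64 and 8.37 in control day8, and 6.77, 6.49 and 6.81 in control day0. The control day8 arrays stood above all others, and the other 9 arrays lay between 6.48 and 7.18. Mmp2 rose by 1.90 ± 0.18 in control day8 against control day0 (adjusted p = 3.66e-05). Mmp14, the membrane protease that activates proMMP2, stood at 8.01, 7.94 and 7.71 in control day8 and 7.73, 7.50 and 7.89 in control day0, groups that overlapped, with a change of 0.18 ± 0.23 (adjusted p = 0.545). Mmp17, a membrane MMP held by a lipid anchor, fell to 3.70, 4.22 and 4.03 in control day8, against 5.49, 5.02 and 5.03 in control day0, a change of -1.20 ± 0.24 (adjusted p = 0.00257). Mmp11, or stromelysin 3, stood at 6.08, 6.14 and 5.11 in control day8 and 6.35, 6.60 and 6.38 in control day0. It fell by 0.67 ± 0.24 (adjusted p = 0.041), a call lost on omitting any 1 control day0, BPA day8 or NP day8 array (adjusted p reaching 0.118), with no filter (0.0681), with array weights (0.0541) and in the compared groups alone (0.134). The other gelatinase, Mmp9, stood at 5.22, 5.68 and 5.33 in control day8 and 4.01, 5.65 and 4.99 in control day0, a difference of 0.53 ± 0.40 (adjusted p = 0.316). The membrane MMPs Mmp16, Mmp23 and Mmp24 did not pass the test. Mmp23 differed by 0.31 ± 0.29, Mmp24 by -0.21 with values under background set to that level, and Mmp16 was under background on all 3 control day0 arrays.

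The hyalectan-cleaving ADAMTSs, which cut aggrecan, versican and related proteoglycans, included the rises with the smallest errors in this class. Adamts1, a versican and aggrecan protease, had a level of 6.47, 6.03 and 6.33 in NP day8, 6.40, 5.71 and 5.83 in BPA day8, 8.27, 7.98 and 8.08 in control day8, and 5.70, 6.12 and 6.31 in control day0. Control day8 stood above the other groups, which overlapped each other. Adamts1 averaged 8.11 ± 0.15 in control day8 and 6.05 ± 0.31 in control day0, a rise of 2.06 ± 0.22 (adjusted p = 6.15e-05). Adamts9, a widely conserved versican protease, stood at 8.36, 8.24 and 8.09 in control day8 and 5.65, 5.71 and 5.08 in control day0, a rise of 2.75 ± 0.17 (adjusted p = 6.26e-06). Adamts15, another of these proteases, stood at 6.34, 6.08 and 5.94 in control day8 and 3.84, 3.65 and 4.38 in control day0, a rise of 2.16 ± 0.19 (adjusted p = 2.24e-05). Both genes had groups that did not overlap. Adamts20, whose mouse mutants have a white belt of fur, was under background on all 3 control day0 arrays at 0.31, 0.34 and 3.13. At 4.86, 3.71 and 4.80 in control day8 it was at least 2.07-fold higher (fitted rise 3.20 ± 0.67, adjusted p = 0.00336). Adamts5, the neighbour of Adamts1 on chromosome 16 and an aggrecanase, did not pass, with a difference of -0.93 ± 0.45 (adjusted p = 0.115), and neither did Adamts4 at 0.52 ± 0.37 (adjusted p = 0.276).

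Of the 6 other tested ADAMTSs, 1 passed. Adamts3, which removes the N-terminal propeptide of procollagen II and activates VEGF-C, stood at 5.96, 5.94 and 5.56 in control day8 and 3.20, -1.91 and 4.32 in control day0. The groups did not overlap, but 1 day 0 array lay far under background. Adamts3 rose by 3.95 ± 1.26 (adjusted p = 0.0264), or by at least 2.11 with values under background set to that level. Omitting any 1 control day8 array ended the call (adjusted p from 0.0521 to 0.065) and in the compared groups alone (0.106). Adamts12, a protease of cartilage matrix proteins, stood at 5.78, 6.17 and 5.68 in control day8 and 4.03, 5.27 and 4.27 in control day0, and its difference of 1.35 ± 0.51 missed the threshold (adjusted p = 0.0504).

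Among 7 tested somatic ADAMs 3 rose and 1 fell, against 28.3% and 20.5% of all genes. Adam10, the sheddase that cleaves Notch receptors, N-cadherin and other surface proteins, had a level of 9.37, 9.31 and 9.44 in NP day8, 9.35, 9.33 and 9.47 in BPA day8, 9.51, 9.57 and 9.58 in control day8, and 8.40, 8.24 and 8.29 in control day0. All day 8 arrays lay above all day 0 arrays. Adam10 rose by 1.25 ± 0.09 in control day8 against control day0 (adjusted p = 8.74e-06). Adam12, or meltrin alpha, known from mesenchyme and muscle precursors, stood at 7.15, 7.10 and 7.05 in control day8 and 5.86, 6.0 and 5.43 in control day0, a rise of 1.34 ± 0.34 (adjusted p = 0.00914). Adam17, the sheddase of TNF-alpha and of EGF receptor ligands, stood at 7.73, 7.56 and 7.83 in control day8 and 7.19, 7.33 and 7.40 in control day0, a rise of 0.40 ± 0.11 (adjusted p = 0.0161). For Adam17 the size and the call varied with the probe set, the scaling and single arrays. Its 2 other probe sets rose by 1.08 ± 0.13 and 1.13 ± 0.35, both called over all probe sets, and the mean of the probe sets rose by 0.87. The rise of the probe set used was 0.24 with quantile normalization (adjusted p = 0.113) and 0.29 with median centring (0.123), and its call was also lost in the compared groups alone (0.0513), without control day0 replicate 1 (0.0611) and without control day8 replicate 3 (0.0519). Adam9, a widely expressed ADAM protease, stood at 8.78, 8.84 and 8.71 in control day8 and 9.25, 9.50 and 9.38 in control day0, and fell by 0.60 ± 0.10 (adjusted p = 0.000692).

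Of the ADAMs without protease activity, Adam23, a neural adhesion protein, stood at 2.56, 4.86 and 4.98 in control day8 and 6.32, 7.01 and 6.77 in control day0. It fell by 2.57 ± 0.57 (adjusted p = 0.00432), or by at least 2.29 against the background level. Adam11 and Adam22 did not pass, with differences of -0.35 ± 0.31 and 0.10 ± 0.24. The ADAMs of the male reproductive tract, best known from sperm, were mostly at the floor of the arrays. The 14 that were not tested had no array value over 4.19. Adam5, 1 of the 2 tested, passed the filter only through control day8, at 3.59, 3.96 and 3.43, against 3.73, -1.14 and -0.54 in control day0. These groups overlapped, and the fitted rise of 2.98 ± 1.03 (adjusted p = 0.0368) shrank to 0.14 with values under background set to that level (adjusted p = 0.526, with alternatives from 6.1e-05 to 0.526). Omitting control day0 replicate 2 or 3, any control day8 array, BPA day8 replicate 1 or NP day8 replicate 1 also ended its call (adjusted p reaching 0.13).

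With BPA, 11 of 37 tested members were lower (29.7%) and 3 higher (8.11%) than in control day8, against 10.2% and 12% of all genes. In all 22.2% of genes were called in this comparison. The falls included Mmp2, Mmp14, Adam12, 3 hyalectan-cleaving ADAMTSs and 2 TIMPs. The groups did not overlap for 18 members, against 41.6% of all genes, and the median change was -0.30, against 0.04 over all genes. Both agents were compared with the same 3 control day8 arrays, which also enter the comparison with control day0.

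**Figure D3:**
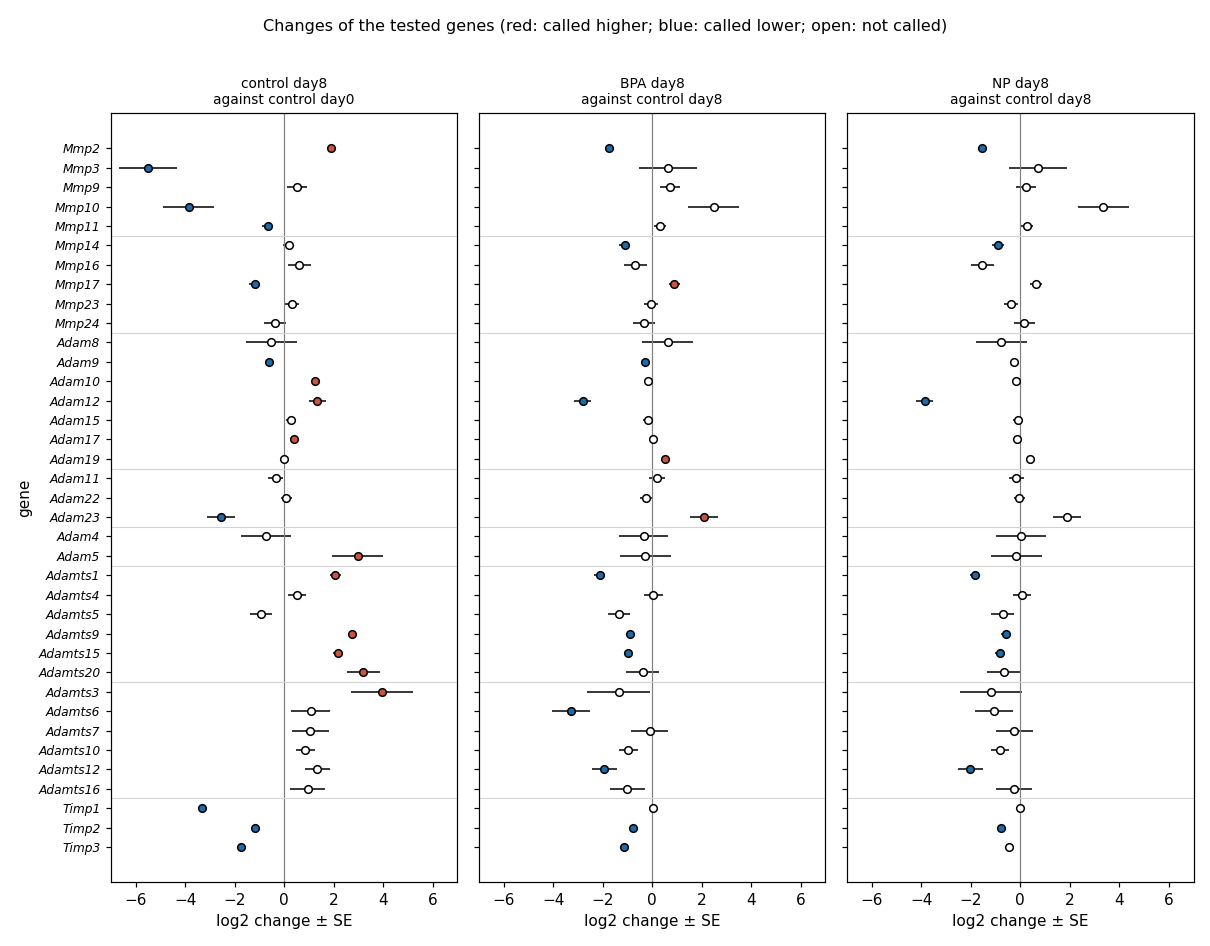
The log2 change ± SE is plotted for each tested member, with panels from left to right for control day8 against control day0, BPA day8 against control day8 and NP day8 against control day8, and with filled points for called changes. Adamts1, Mmp2 and Adam12 lie left of 0 with both agents and right of 0 in control day8 against control day0, and Timp1 lies near 0 with both agents.

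Mmp2 and its activator Mmp14 both fell with BPA. Mmp2 averaged 6.85 ± 0.35 in BPA day8 and 8.59 ± 0.20 in control day8, a change of -1.74 ± 0.18 (adjusted p = 0.000425). Mmp14 stood at 6.75, 6.53 and 7.07 in BPA day8, against 8.01, 7.94 and 7.71 in control day8, and fell by 1.11 ± 0.23 (adjusted p = 0.00795). Every BPA array of both genes lay under every control day8 array. A second probe set gave -2.08 for Mmp2 and -1.17 for Mmp14, both called over all probe sets. Mmp17 stood at 4.66, 4.73 and 5.26 in BPA day8 and 3.70, 4.22 and 4.03 in control day8, a rise of 0.90 ± 0.24 (adjusted p = 0.0255). Its call was lost without control day8 replicate 1 (adjusted p = 0.0934), without BPA day8 replicate 3 (0.0859) and with a variance trend (0.0558), with alternatives from 0.0133 to 0.0934. Mmp9 differed by 0.73 ± 0.40 (adjusted p = 0.23), with 6.16, 6.30 and 5.97 in BPA day8 and 5.22, 5.68 and 5.33 in control day8. In a fit on the compared groups alone it passed (adjusted p = 0.0412). Mmp3 and Mmp10 were mostly under background in both groups and did not pass.

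Adam12 was the member with the largest measured fall with BPA among those above background on all arrays of both groups. Its level was 4.13, 3.07 and 2.49 in NP day8, 4.33, 4.38 and 4.16 in BPA day8, 7.15, 7.10 and 7.05 in control day8, and 5.86, 6.0 and 5.43 in control day0. Both agents lay under control day0 as well as under control day8, although agent against day 0 was not tested. With BPA it fell by 2.81 ± 0.34 (adjusted p = 0.000745), which is 7.01-fold. Adam9 stood at 8.49, 8.53 and 8.40 in BPA day8 and 8.78, 8.84 and 8.71 in control day8. The fall of 0.30 ± 0.10 (adjusted p = 0.047) did not hold on omitting control day0 replicate 3, any array of control day8 or BPA day8, or NP day8 replicate 1 or 2 (adjusted p reaching 0.131), nor under 7 other alternatives. Adam19, or meltrin beta, which acts in heart development, stood at 8.62, 8.40 and 8.54 in BPA day8 and 7.95, 8.08 and 7.99 in control day8. It rose by 0.51 ± 0.14 (adjusted p = 0.0242), a call that ended on omitting control day8 array 1 (0.0787) or 3 (0.0513) or BPA day8 array 1 (0.0796) or 3 (0.0658). A second Adam19 probe set moved the other way by -0.37 without passing, and the mean of the probe sets changed by 0.07 (adjusted p = 0.776). Adam23 stood at 6.13, 6.55 and 6.03 in BPA day8 and 2.56, 4.86 and 4.98 in control day8, a rise of 2.10 ± 0.57 (adjusted p = 0.0262), or at least 1.82. Omitting any 1 BPA day8 array ended the call (adjusted p reaching 0.0792), as did the compared groups alone (0.0921). Adam10 differed by -0.17 ± 0.09 (adjusted p = 0.188) although its groups did not overlap, and Adam17 by 0.05 ± 0.11 (adjusted p = 0.802).

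The proteoglycan-cleaving ADAMTSs that had risen by day 8 of control culture included 3 that fell with BPA. Adamts1 averaged 5.98 ± 0.37 in BPA day8 and 8.11 ± 0.15 in control day8, a fall of 2.13 ± 0.22 (adjusted p = 0.00039). Adamts9 stood at 7.29, 7.32 and 7.38 in BPA day8 and 8.36, 8.24 and 8.09 in control day8, a fall of 0.90 ± 0.17 (adjusted p = 0.0057). Its other 2 probe sets gave 0.55 and 0.12 without passing, and the mean of all 3 fell short of the threshold at -0.08 (adjusted p = 0.88). Adamts15 stood at 5.25, 5.19 and 5.03 in BPA day8 and 6.34, 6.08 and 5.94 in control day8, a fall of 0.97 ± 0.19 (adjusted p = 0.00599). Adamts12 stood at 4.18, 4.44 and 3.18 in BPA day8 and 5.78, 6.17 and 5.68 in control day8, a fall of 1.94 ± 0.51 (adjusted p = 0.023), or at least 1.87. Each BPA value of these genes lay under each control day8 value. The Adamts12 call ended on omitting control day8 array 1 (0.0593) or 2 (0.0738) or BPA day8 array 3 (0.0793), with alternatives from 0.00432 to 0.0793. Adamts6, a relative of Adamts10 that acts on fibrillin matrix, stood at 2.60, -0.77 and 2.52 in BPA day8, under background, and 5.13, 4.42 and 4.64 in control day8. It was at least 2.51-fold lower (fitted change -3.28 ± 0.78, adjusted p = 0.0151), and its call was lost without control day8 replicate 1 (0.055) and in the compared groups alone (0.0705).

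The TIMPs divided with BPA. Timp1 averaged 7.0 ± 0.04 in BPA day8 and 6.98 ± 0.20 in control day8, a difference of 0.02 ± 0.16 (95% interval -0.34 to 0.37, adjusted p = 0.96). Timp2 averaged 7.14 ± 0.14 in BPA day8 and 7.93 ± 0.13 in control day8, a fall of 0.79 ± 0.12 (adjusted p = 0.00198). Timp3 averaged 6.24 ± 0.14 in BPA day8 and 7.38 ± 0.14 in control day8, a fall of 1.14 ± 0.13 (adjusted p = 0.000624). Both falls continued in the direction of the change between day 0 and day 8 of control culture. The 4 Timp3 probe sets kept disagreed, at -1.14, -1.04, -0.34 and 0.73, with only the first 2 called over all probe sets. Taken as the mean of its probe sets, Timp3 changed by -0.45 (adjusted p = 0.0576) and Timp2 by -0.88 (0.0998).

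Markers of other cells moved beside these changes. Of 14 tested fibroblast and feeder genes, 11 fell with BPA and 10 with NP, Col3a1 by 4.64 ± 0.33 with BPA (adjusted p = 0.000115) and by 4.96 ± 0.33 with NP (adjusted p = 0.000218). All 8 pluripotency genes rose with each agent. Of 7 tested endothelial genes 4 fell with BPA and 3 with NP, the list mean ranging over arrays from 4.97 to 5.35 in NP day8, 4.57 to 4.99 in BPA day8, 6.34 to 6.51 in control day8 and 3.35 to 4.0 in control day0. Of 8 cardiac muscle genes 6 fell with each agent. Of 8 macrophage genes, 5 were tested, and 1 rose with each agent. The part of these cells in the changes of Mmp2, Mmp14, Adam12 and the ADAMTSs was not tested. Timp1 differed from control day8 by -0.01 with NP and 0.02 with BPA, while the fibroblast list was lower with both. Of that list, S100a4 (3.09) and Thy1 (2.97) averaged under the background level in control day8. Postn (11.08) and Col3a1 (11.41) stood far above it in the same group. The list mean in control day8 was 7.50, and 5 of the 14 genes were called higher and 7 lower than in control day0. The part of fibroblasts in the level of Timp1 was not tested.

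With NP, 8 of 37 tested members were lower (21.6%), against 6.28% of all genes, and 0 were higher by limma's adjusted p, against 7.9%. At an unadjusted p under 0.05, 4 were higher and 11 lower. In all 14.2% of genes were called. The groups did not overlap for 20 members, against 34.8% of all genes, and the median change was -0.25, against 0.01 over all genes. The falls were those of Mmp2, Mmp14, Adam12, Adamts1, Adamts9, Adamts15, Adamts12 and Timp2.

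Mmp2 averaged 7.05 ± 0.11 in NP day8 and 8.59 ± 0.20 in control day8, a fall of 1.54 ± 0.18 (adjusted p = 0.00126). Mmp14 stood at 7.49, 6.77 and 6.70 in NP day8 and 8.01, 7.94 and 7.71 in control day8, a fall of 0.90 ± 0.23 (adjusted p = 0.0284). The groups of both genes were apart, but those of Mmp14 by a small gap. The Mmp14 call ended on omitting control day8 array 1 or 2 or NP day8 array 2 or 3 (adjusted p reaching 0.102), with no filter (0.0544) and in the compared groups alone (0.091). Adam12 fell by 3.87 ± 0.34 (adjusted p = 0.000433), or by at least 3.45 with values under background set to that level. Adamts1 averaged 6.28 ± 0.23 in NP day8 and 8.11 ± 0.15 in control day8, a fall of 1.83 ± 0.22 (adjusted p = 0.00127).

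The other called falls with NP were those of 3 ADAMTSs and Timp2. Adamts15 stood at 5.39, 5.30 and 5.17 in NP day8 and 6.34, 6.08 and 5.94 in control day8, a fall of 0.83 ± 0.19 (adjusted p = 0.0187). Adamts12 stood at 4.89, 3.57 and 3.09 in NP day8 and 5.78, 6.17 and 5.68 in control day8, a fall of 2.02 ± 0.51 (adjusted p = 0.0288), or at least 1.92. Both calls ended on omitting any of the same 4 arrays as for Mmp14, control day8 array 1 or 2 and NP day8 array 2 or 3, with adjusted p reaching 0.0718 for Adamts15 and 0.0988 for Adamts12. The Adamts12 call was also lost with no filter (0.0528) and in the compared groups alone (0.0704). Adamts9 stood at 7.57, 7.50 and 7.84 in NP day8 and 8.36, 8.24 and 8.09 in control day8, a fall of 0.60 ± 0.17 (adjusted p = 0.0459). That call ended on omitting control day0 array 1 or any 1 array of the other groups (adjusted p reaching 0.146), with no filter (0.0864), with quantile normalization (0.0583), in the compared groups alone (0.0735) and with the replicate block (0.0777), and the mean of its probe sets changed by 0.07 (adjusted p = 0.914). Timp2 averaged 7.14 ± 0.11 in NP day8 and 7.93 ± 0.13 in control day8, a fall of 0.79 ± 0.12 (adjusted p = 0.0032), and the mean of its probe sets changed by -0.91 (adjusted p = 0.121).

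Other members did not pass with NP. Timp3 averaged 6.94 ± 0.10 in NP day8 and 7.38 ± 0.14 in control day8, a difference of -0.44 ± 0.13 (adjusted p = 0.0525). It passed under 7 of 23 alternatives, which ran from -0.52 to -0.08 (adjusted p from 0.0179 to 0.765). Its other kept probe sets disagreed, at -0.43, -0.45 and 0.99, and none was called over all probe sets. Adam23 differed by 1.89 ± 0.57 (adjusted p = 0.0542), or by 1.61 with values under background set to that level, Adam19 by 0.40 ± 0.14 (0.0799) and Mmp17 by 0.64 ± 0.24 (0.111). Another Adam19 probe set moved the other way, by -0.64 ± 0.20, without passing. Adam23 passed as higher under several alternatives, among them quantile normalization, median centring, array weights, the replicate block and the omission of control day8 replicate 3. Mmp16, under background on all 3 NP day8 arrays, was lower by at least 0.42 (adjusted p = 0.0533), and it passed with array weights, with the replicate block and without BPA day8 replicate 1 or NP day8 replicate 1. Mmp10 differed by 3.35 ± 1.04 (adjusted p = 0.061), and by 0.56 with values under background set to that level. Timp1 averaged 6.97 ± 0.29 in NP day8 and 6.98 ± 0.20 in control day8, a difference of -0.01 ± 0.16 (95% interval -0.37 to 0.34, adjusted p = 0.968). Mmp9 differed by 0.22 ± 0.40 (adjusted p = 0.771), Adam10 by -0.18 ± 0.09 (0.204), Adam17 by -0.14 ± 0.11 (0.463) and Adamts6 by -1.07 ± 0.78 (0.407), or by -0.96 against the background level. Across the comparisons with control groups, 23 tested members were called at least once, and by these calls 5 of them (Adam12, Adamts1, Adamts15, Adamts9 and Mmp2) were higher in control day8 than in all 3 other groups. For Adamts9 this rests on the probe set used. By limma, the mean of its probe sets changed by -0.08 with BPA (adjusted p = 0.88) and by 0.07 with NP (0.914). The remaining 14 tested members were called in none, among them Adam8, Adam15, Adamts7, Adamts10 and Adamts16.

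Set directly against each other at day 8, NP and BPA gave no called member by limma's adjusted p, and 3 at an unadjusted p under 0.05. In all, 0.00765% of genes tested were called in this comparison. The groups did not overlap for 4 members, against 17% of all genes. Timp3, with 6.94, 6.83 and 7.03 in NP day8 and 6.11, 6.23 and 6.38 in BPA day8, differed by 0.70 ± 0.13 (95% interval 0.40 to 0.99, adjusted p = 0.277). Adam12 differed by -1.06 ± 0.34 (95% interval -1.82 to -0.30, adjusted p = 0.463), or by -0.64 with values under background set to that level. Adamts6, under background on all 3 BPA day8 arrays, was not called (adjusted p = 0.499) and was higher in NP day8 by 0.37 against that level. Differences that missed every threshold still had wide intervals. They ran from -0.20 to 0.61 for Mmp2, from -0.19 to 0.79 for Adamts1, from -0.30 to 0.71 for Mmp14, from -0.39 to 0.33 for Timp1 and from -0.27 to 0.26 for Timp2.

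Genes that act with the family were taken from 7 lists. Over all genes tested, 28.3% rose and 20.5% fell in control day8 against control day0, 12% and 10.2% with BPA, and 7.9% and 6.28% with NP. Of 12 activators and plasminogen genes 6 rose and 2 fell in control day8 against control day0, 3 rose and 1 fell with BPA, and 2 rose and 1 fell with NP. Pcsk5, a proprotein convertase, changed by -2.80 ± 0.37 with NP (adjusted p = 0.00196), by -3.01 ± 0.37 with BPA (0.000818) and by 3.09 ± 0.37 in control day8 against control day0 (0.000133). Pcsk6, a related convertase, ran the other way, with 1.09 ± 0.17 (0.00402), 1.65 ± 0.17 (0.000397) and -1.19 ± 0.17 (0.000357) in the same order. Plg, the plasmin precursor, was under background on all control day0 arrays and rose by at least 0.82 (fitted rise 4.06 ± 0.39, 3.65e-05) by day 8 of control culture. Of 15 other inhibitors and clearance receptors 11 were tested, of which 6 rose and 2 fell in control day8 against control day0 and 3 fell with each agent. Reck, a membrane-anchored inhibitor of MMPs, rose in control culture by 1.66 ± 0.14 (2.1e-05) while the TIMPs fell, and fell by 0.84 ± 0.14 with NP (0.00545) and 0.84 ± 0.14 with BPA (0.00334). Serpinf1, a secreted serpin-family protein, fell by 1.13 ± 0.20 with BPA (0.00449), and Lrp1, an endocytic receptor that clears proteases, fell by 0.87 ± 0.17 with NP (0.0108).

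Of 14 partners of ADAM10 and ADAM17, 12 were tested, of which 3 rose and 2 fell in control day8 against control day0, 4 rose with BPA and 3 rose with NP. The counts in control day8 against control day0 were near the shares of all genes (28.3% and 20.5%). Tspan14, a tetraspanin that carries ADAM10 to the cell surface, rose by 1.49 ± 0.17 in control day8 against control day0 (adjusted p = 9.36e-05), as Adam10 did. Tspan17, of the same group, fell there by 3.87 ± 0.74 (0.00202), at least 1.92, and rose by 3.35 ± 0.74 with NP (0.0184), at least 1.40, and by 3.70 ± 0.74 with BPA (0.00739), at least 1.76. Rhbdf1, an inactive rhomboid that takes part in ADAM17 maturation, rose by 1.29 ± 0.22 in control day8 against control day0 (0.00101), and Rhbdf2, its relative, rose by 1.24 ± 0.30 with NP (0.0241). Of 12 shed EGF family ligands and receptors 9 were tested, of which 4 rose and 1 fell in control day8 against control day0, 1 rose and 1 fell with BPA, and 1 fell with NP. Egfr, the EGF receptor, was the gene that fell, by 1.22 ± 0.30 with NP (0.026) and by 1.27 ± 0.30 with BPA (0.0143).

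Of 12 ADAMTS substrates, all tested, 4 rose and 2 fell in control day8 against control day0, 1 rose and 6 fell with BPA, and 1 rose and 5 fell with NP. Their median change was -0.78 with NP and -0.89 with BPA, against 0.01 and 0.04 over all genes. Ncan, or neurocan, a proteoglycan of the nervous system, was the exception. It was under background on all control day8 arrays and rose by at least 0.71 with NP (fitted 2.99 ± 0.39, adjusted p = 0.00189) and at least 0.18 with BPA (fitted 2.42 ± 0.39, 0.00283). Hapln1, the link protein of hyaluronan aggregates, fell by 3.37 ± 1.04 with BPA (0.0454), at least 2.92. Col1a1, Col1a2 and Col3a1 stood both among the ADAMTS substrates and among the fibroblast and feeder genes. They fell with BPA by 2.46, 2.10 and 4.64, so the counts of these lists are not separate results. Of 13 ADAMTS-like and related matrix proteins 8 were tested, of which 3 rose and 3 fell in control day8 against control day0, 1 rose and 2 fell with BPA, and 1 rose and 1 fell with NP. Fbn2, a microfibril protein of the embryo, rose by 4.08 ± 0.36 in control day8 against control day0 (2.59e-05) and fell by 2.01 ± 0.36 with NP (0.00752) and 2.23 ± 0.36 with BPA (0.00286). Of 14 other matrix and surface proteases 11 were tested, of which 4 rose and 3 fell in control day8 against control day0, 3 rose and 2 fell with BPA, and 1 rose and 2 fell with NP. Ece1, the endothelin-converting metalloprotease, rose by 1.57 ± 0.27 in control day8 against control day0 (0.001) and fell by 1.79 ± 0.27 with NP (0.00329) and 1.56 ± 0.27 with BPA (0.00362). Pcolce, which enhances the C-terminal processing of procollagen, fell by 1.12 ± 0.22 in control day8 against control day0 (0.00225), by 1.46 ± 0.22 with NP (0.00348) and by 1.65 ± 0.22 with BPA (0.00116).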

How the data were processed

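The authors deposited log2 signals per probe set made with MAS5, per the submitters' processing notes. Its version, its scaling target and the array background correction were not given in the sources used here, and the table held no detection calls. The trimmed mean of the back-transformed signals was 100.0 on each array. Of 45101 probe sets, 64 controls were left out and the 60% with the highest mean were kept (27023). For 13067 genes the kept probe set of largest mean was used. The lowest kept mean was 2.79; the last members inside were Mmp10 (2.93) and Adam5 (2.80), the first outside Mmp19 (2.71) and Adamts8 (2.47). Symbols came from the platform table, and 0 of the 65 member symbols differed in RefSeq.

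limma 3.58.1 in R 4.3.3 fitted 4 group means over 12 arrays and moderated their variances by 1.57 prior beside 8 residual degrees of freedom. The 2-sided p-values of each of 4 comparisons were adjusted by Benjamini-Hochberg. The fit was tested on simulated data. The members, lists and tests were chosen with earlier results of these data known. Named per comparison were up to 10 rises and 10 falls past the threshold, the TIMPs, Mmp2, Mmp9, Mmp14, Adam10, Adam17, Adamts1 and Reck, and per pathway list up to 2 genes per direction. Adam9 with BPA, members that were not called, second probe sets and the cluster genes were named after their values were seen. Marker lists covered fibroblasts and feeders, pluripotent cells, endothelium, yolk sac endoderm, cardiac muscle, macrophages and trophoblast. The background level came from 36 TrpnX values, seen before it was set. Alternatives were a pseudocount of 16, no filter, 40% of probe sets, quantile normalization, median centring, the mean of probe sets, a variance trend, array weights, the compared groups alone, the replicate number as a block, each array left out and, added after the data were seen, the background floor. Python 3.11.15 and matplotlib 3.10.9 drew the figures.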

Additional observations from a re-analysis of the deposited data

How the results depend on the processing

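Of 41 named changes that were called, 22 passed under every alternative run and 27 with every array left out, 19 lost the call under at least 1, and 1 reversed, the change of Adamts9 with NP (0.066 with the mean of probe sets). The 22 include the rise of Adamts20 and the fall of Mmp3 in control day8 against control day0. Those genes were tested in 22 of 23 alternatives, being absent with 40% of probe sets kept, and are left out of the next list. Passing under all settings were, in control day8 against control day0, the rises of Adam10, Adam12, Adamts1, Adamts15, Adamts9 and Mmp2 and the falls of Adam23, Adam9, Mmp17, Timp1, Timp2 and Timp3, with BPA the falls of Adam12, Adamts1, Adamts15, Mmp14 and Mmp2, and with NP those of Adam12, Adamts1 and Mmp2. With BPA, 7 members were lower with the mean of probe sets, against 11, and leaving out 1 array gave 0 to 3 higher members, with 0 without BPA day8 replicate 3. Over all genes, 1045 were lower with BPA with the mean of probe sets, against 1337, and 1122 were higher without BPA day8 replicate 3, against 1569. With NP, 1 member was higher, against 0, with no filter (Adamts8) and (Adam23) with a pseudocount of 16, 40% of probe sets kept, quantile normalization, median centring, the mean of probe sets, array weights and the background floor, and 3 (Adam19, Adam23 and Mmp10) with a variance trend, while leaving out 1 array gave 0 to 1, with 1 without control day8 replicate 1 (Mmp10) or 3 (Adam23) or NP day8 replicate 1 (Adam19). With NP, 5 members were lower with no filter and 5 in the compared groups alone, against 8, and leaving out 1 array gave 4 to 9, with 4 without control day8 replicate 1 or 2 or NP day8 replicate 2 or 3. Over all genes, 513 were lower with NP with no filter and 322 in the compared groups alone, against 820. Without those same 4 arrays in turn, 303 to 394 of all genes were lower. Same-numbered arrays deviated from their group means with correlations from -0.01 to 0.08, so the numbers were not taken as pairs. With the replicate number as a block, 11 members were higher and 9 lower in control day8 against control day0, 3 and 10 with BPA, 1 and 8 with NP, and 0 differed between NP and BPA. In that fit the member higher with NP was Adam23, and among those lower Adamts9 lost its call and Mmp16 gained one. The median change of all genes in control day8 against control day0 was 0.12 as deposited and 0.01 with quantile normalization and with median centring. No alternative gave a called member in NP day8 against BPA day8. The causes were not tested. Signal over background limits the cluster MMPs, the ADAMs of the male reproductive tract and the low ADAMTSs.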

Other observations

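Of the 28 members that did not pass the filter, 8 lay under background on all 12 arrays, and 1, Mmp13, lay above it on all 3 arrays of a group. Fitted without the filter, limma called 4 of the 28 in control day8 against control day0. Over all 18193 genes that fit called 3409 higher and 2447 lower in this comparison. Mmp13 changed by -4.28 ± 1.43 (adjusted p = 0.0469) and Adamts8 by -1.71 ± 0.57 (0.0461), while Adam7 changed by 3.17 ± 0.86 (0.0196) and Mmp20 by 3.10 ± 0.91 (0.0278). Mmp13 and Adamts8 were under background on all control day8 arrays, and Adam7 and Mmp20 on all control day0 arrays, so these fitted changes are not sizes. Adam7 was under background in control day8 too, and Mmp20 lay above it on only 1 control day8 array. Adamts8, the neighbour of Adamts15 on chromosome 9, lay above background on 2 NP day8 arrays, 1 BPA day8 array, 0 control day8 arrays and 1 control day0 array. The limma fit without the filter also called it higher than control day8 with BPA (2.31 ± 0.57, adjusted p = 0.0297) and with NP (2.69 ± 0.57, 0.0266). These fitted changes are likewise not sizes.

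The other marker lists moved as follows. Of 10 yolk sac endoderm genes, 10 rose in control day8 against control day0, 1 fell with BPA, and 1 rose and 1 fell with NP. Of 8 trophoblast genes, 6 rose in control day8 against control day0, 1 rose with BPA, and 1 rose and 1 fell with NP. Of 5 tested macrophage genes, 2 rose and 1 fell in control day8 against control day0.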
